A study of Mus musculus with 8 samples.

Results

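Snap25, Stx1a, Vamp1, Vamp2, Cplx1, Cplx2, Nsf and Napb, 8 genes of the SNARE fusion machinery of the synapse, were followed across 8 libraries of nuclear RNA from mouse hippocampal place cells. They were listed by name, with no threshold on measured values, as the SNARE proteins of neurotransmitter release, the complexins that bind them and the ATPase and adaptor that take them apart. All 8 were among the 15519 genes of the table, and all 8 passed the filter on low values that left 11078 genes to test. The cells were pyramidal cells of wild-type mice, identified as place cells by two-photon imaging during spatial navigation, and their nuclei were phototagged and collected. A place cell fires when the animal is at a particular location. One group of 4 libraries held Day 0 place cells and the other held Recurring place cells, 4 libraries as well, and these names are not defined further in the labels. Each library is titled with its own mouse number. Age, sex and batch are not given in the labels, nor is the number of nuclei per library. No other label speaks to whether libraries came from different animals, and every p-value here rests on the spread among the 8 libraries alone. Libraries held 8374986 to 14887866 reads in genes and 10718 to 13807 detected genes. All 14 CA1 pyramidal marker genes examined were in the table, with a mean log2 level of 9.74 ± 0.75 in Day 0 and 9.76 ± 0.13 in Recurring libraries (SD, n = 4 each). That difference of 0.02 turned negative without any 1 of 3 libraries, and was lowest, -0.26, without Day 0 replicate 4. In such pooled nuclei, fewer cells expressing a gene and less RNA per cell cannot be told apart.

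At a synapse, vesicles fuse when the vesicle SNARE synaptobrevin (Vamp1 or Vamp2) zippers with the plasma membrane SNAREs syntaxin-1 (Stx1a) and SNAP-25 (Snap25) into a tight helical bundle that pulls the membranes together. Complexins (Cplx1, Cplx2) bind the partly assembled bundle, clamp it and promote fast release when calcium arrives. After fusion, the ATPase NSF (Nsf), held to the bundle by SNAP adaptors such as the brain-enriched beta-SNAP (Napb), pulls the bundle apart so that its parts can be used again.

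Upstream sequences are shown for 3 of the genes, as examples of uneven and even genes: within-group SDs on the log2 scale were 3.39 for Stx1a and 2.80 for Cplx1, against 0.41 for Nsf. Cplx2 (3.09) and Vamp1 (2.51) were uneven too. RefSeq's promoter table for GRCm38.p6 held 6 of the 8 genes. Snap25 and Vamp2 were not matched. The windows are the 250 bases before the annotated start, 5′ to 3′ on the gene's strand: chr5:135023232-135023481 on the plus strand for Stx1a, chr5:108550028-108550277 on the minus strand for Cplx1 and chr11:103954057-103954306 on the minus strand for Nsf. Capitals mark the GC box GGGCGG or its reverse complement CCGCCC, the core of the site for Sp1-type factors.
Stx1a: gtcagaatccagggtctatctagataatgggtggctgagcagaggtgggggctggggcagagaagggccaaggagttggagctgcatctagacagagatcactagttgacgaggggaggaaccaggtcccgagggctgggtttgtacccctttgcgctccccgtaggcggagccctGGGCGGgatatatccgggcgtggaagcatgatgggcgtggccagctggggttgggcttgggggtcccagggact
Cplx1: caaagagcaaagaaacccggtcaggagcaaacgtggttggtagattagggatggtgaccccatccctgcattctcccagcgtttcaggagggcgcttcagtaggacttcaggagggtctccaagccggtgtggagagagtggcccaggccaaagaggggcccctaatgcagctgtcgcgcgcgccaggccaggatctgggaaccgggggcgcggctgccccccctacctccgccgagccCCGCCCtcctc
Nsf: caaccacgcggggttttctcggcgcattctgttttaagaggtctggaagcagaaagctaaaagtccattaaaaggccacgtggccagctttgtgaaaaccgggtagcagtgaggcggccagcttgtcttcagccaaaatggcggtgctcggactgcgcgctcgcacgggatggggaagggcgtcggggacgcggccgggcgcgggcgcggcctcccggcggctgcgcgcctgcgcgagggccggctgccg
The search covered both strands. A GC box was found once each in the windows of Stx1a, Cplx1 and Vamp1, and in none of those of Cplx2, Napb and Nsf. Of all 32851 windows of this length, 32.7% held one. The palindromic cyclic AMP response element TGACGTCA was in none of the 6 windows and in 1.55% of all windows. Its first bases TGACG, or their reverse complement CGTCA, occurred once in the Stx1a window and in 17.8% of all windows. That short match lies within the full element. The E-box CACGTG occurred once in the Nsf window and in 6.02% of all windows. GC content was 50.4% to 66.0% in the 6 windows, against a median of 52.4%. These matches describe letters only and were not related to the levels by any test.

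None of the 8 genes differed between Recurring and Day 0 place cells beyond the spread between libraries. Counts were normalized to library depth and compared on a log2(count + 1) scale, which understates the change of low genes, by limma with Benjamini-Hochberg adjustment over all 11078 tested genes. At an adjusted p of 0.05, 0 of the 8 were called, as were 0 of all tested genes (0%). At an unadjusted p under 0.05, 0 of the 8 were called, against 3.62% of tested genes, with 1.88% (208) higher and 1.74% (193) lower. That split was 240 higher and 132 lower when the deposited values were used as they stand. In 0 of the 8 did the 2 groups of libraries separate without overlap, against 2.41% of tested genes. The voom method also called 0 of the 8 at either threshold. The mean log2 level was higher in Recurring cells for 7 of the 8 genes (50.1% of tested genes), with a median difference of 0.25 against 0.00 for all tested genes. Nsf was the gene with the lower mean log2 level. Means of the normalized counts themselves were lower in Recurring cells for 4 of the 8, Vamp2, Cplx1, Cplx2 and Nsf. These directions did not pass a test, and 5 of the 7 higher means turned negative when libraries were weighted by their quality.

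**Figure D1:**
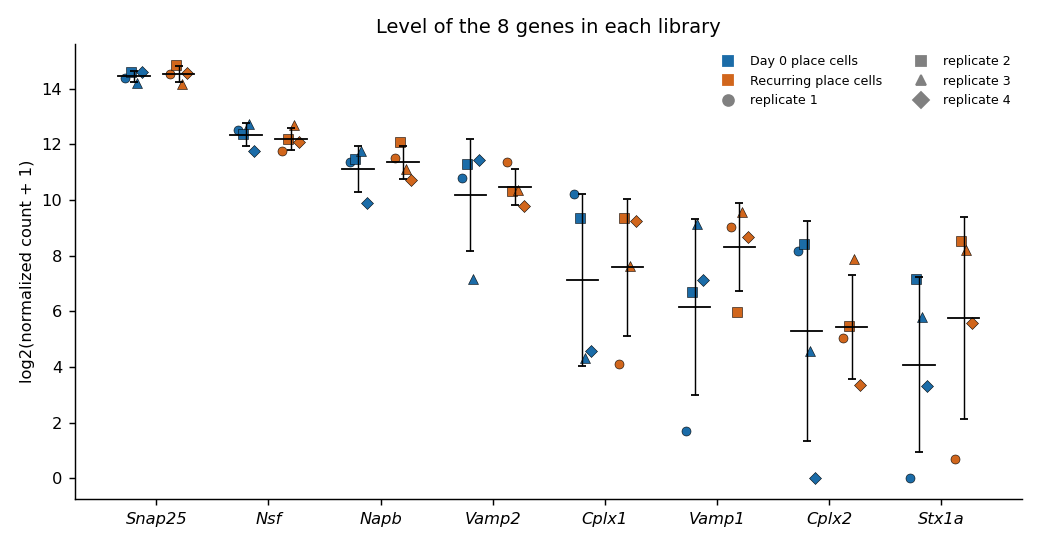
Log2(normalized count + 1) of the 8 genes (y axis), with 1 point per library for Day 0 (blue) and Recurring (orange) place cells, a horizontal bar at the group mean and error bars of 1 SD (n = 4 each). Snap25 and Nsf lie in narrow bands (1.63-fold and 1.98-fold over the 8 libraries) and Napb in a wider one (4.56-fold). Stx1a, Vamp1, Cplx1 and Cplx2 spread over more than 10-fold within both groups.

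Snap25, which contributes a pair of helices to the SNARE bundle, was the most abundant of the 8 and the most even. Its normalized count was 21370, 24567, 18706 and 25033 in Day 0 replicates 1 to 4 and 23721, 29834, 18278 and 24167 in Recurring replicates 1 to 4. The highest and the lowest library were both Recurring ones, and they differed 1.63-fold. The log2 level was 14.44 ± 0.20 in Day 0 libraries and 14.53 ± 0.29 in Recurring ones (SD, n = 4 each). The difference on the log2 scale was 0.09 (SE 0.21, 95% interval -0.36 to 0.53, limma adjusted p = 0.998). The interval spans a 0.781-fold to 1.44-fold ratio of Recurring to Day 0. Without Recurring replicate 2 the difference was -0.025. Snap25 alone accounted for 0.248% ± 0.048 of a library's reads, counted over all genes, in Day 0 libraries and 0.254% ± 0.042 in Recurring ones (SD, n = 4 each). It ranked between 7 and 16 among all genes by reads in the 8 libraries.

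Stx1a, the plasma membrane syntaxin that carries the release machinery at the active zone, was low and uneven. Its read counts were 0, 178, 46 and 9 in Day 0 replicates 1 to 4 and 1, 458, 280 and 46 in Recurring replicates 1 to 4. The count of 0 allows up to 3 reads, or a normalized count of 2.23, counting error only. Each group thus held a library with almost no Stx1a and one with at least 178 reads. On the log2 scale the mean was 4.07 ± 3.15 in Day 0 libraries and 5.76 ± 3.62 in Recurring ones (SD, n = 4 each). The difference of 1.68 had an SE of 2.50 and a 95% interval from -3.60 to 6.96 (limma adjusted p = 0.998). Leaving out Day 0 replicate 1 brought it to 0.33, and leaving out Recurring replicate 1 brought it to 3.37.

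Vamp2, the main synaptobrevin of forebrain synapses, ranged 19.4-fold between libraries, with 1 of them far below the rest. Its normalized count was 1777, 2534, 143 and 2780 in Day 0 replicates 1 to 4 and 2630, 1268, 1324 and 892 in Recurring replicates 1 to 4. Day 0 replicate 3 lay far below the other 7 libraries, which ran from 892 to 2780. The difference was 0.28 on the log2 scale (SE 0.80, 95% interval -1.41 to 1.97, limma adjusted p = 0.998). It was -0.72 without Day 0 replicate 3 and -0.02 without Recurring replicate 1, so its direction rests on single libraries. The within-group SD of 1.50 was larger than that of 93.5% of the 1035 tested genes of like level, whose median SD was 0.81. Limma's variance trend draws the SE towards that of such genes, so the interval understates the spread of Vamp2 itself.

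Vamp1, the synaptobrevin best known from motor, sensory and fast-spiking inhibitory neurons, had the largest difference in means of the 8, and its groups overlapped. Its read counts were 3, 128, 472 and 139 in Day 0 replicates 1 to 4 and 841, 77, 710 and 402 in Recurring replicates 1 to 4. Recurring replicate 2 lay below 3 of the 4 Day 0 libraries. Mean log2 levels were 6.16 ± 3.17 in Day 0 libraries and 8.31 ± 1.59 in Recurring ones (SD, n = 4 each). The difference was 2.15 (SE 1.72, 95% interval -1.48 to 5.77, limma unadjusted p = 0.228, adjusted p = 0.981). Without Day 0 replicate 1, the library with 3 reads, it was 0.66. It was 3.14 without Day 0 replicate 3.

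Cplx1, the complexin of fast synchronous release, ranged 74.6-fold between libraries. Its normalized count was 1202, 645, 19.1 and 23.1 in Day 0 replicates 1 to 4 and 16.1, 660, 196 and 610 in Recurring replicates 1 to 4. High libraries (610 or more) and low ones (23.1 or less) occurred in both groups. The log2 level was 7.12 ± 3.10 in Day 0 libraries and 7.59 ± 2.46 in Recurring ones (SD, n = 4 each). The difference was 0.46 (SE 1.76, 95% interval -3.24 to 4.17, limma adjusted p = 0.998). It ran from -0.47 without Day 0 replicate 3 to 1.63 without Recurring replicate 1, and was also below 0 without Day 0 replicate 4 (-0.38), Recurring replicate 2 (-0.13) or Recurring replicate 4 (-0.09).

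Cplx2, the complexin of most excitatory forebrain neurons, was low and absent from the reads of one library. Its read counts were 390, 429, 19 and 0 in Day 0 replicates 1 to 4 and 51, 54, 221 and 9 in Recurring replicates 1 to 4. The count of 0 allows up to 3 reads, or a normalized count of 3.01. The Day 0 libraries thus fell into a high pair and a low pair. Of the Recurring libraries, replicate 4 lay within the low pair and the other 3 lay between the pairs. The log2 level was 5.29 ± 3.95 in Day 0 libraries and 5.43 ± 1.87 in Recurring ones (SD, n = 4 each), a difference of 0.14 (SE 2.41, 95% interval -4.94 to 5.22, limma adjusted p = 0.998). It was -1.63 without Day 0 replicate 4, -0.10 without Day 0 replicate 3 and -0.68 without Recurring replicate 3. The highest value with a library left out was 1.18, without Day 0 replicate 2.

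Nsf, the ATPase that dissociates spent SNARE bundles, was second in evenness to Snap25 among the 8. Its normalized count was 5904, 5317, 6850 and 3456 in Day 0 replicates 1 to 4 and 3478, 4627, 6683 and 4393 in Recurring replicates 1 to 4. The 8 libraries lay within a 1.98-fold range and the groups overlapped almost fully. Log2 levels averaged 12.35 ± 0.42 in Day 0 libraries and 12.19 ± 0.39 in Recurring ones (SD, n = 4 each). The difference was -0.16 (SE 0.34, 95% interval -0.88 to 0.56, limma adjusted p = 0.998), from -0.36 to -0.02 when each library in turn was left out.

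Napb, its beta-SNAP adaptor, was less even, with a 4.56-fold range over the 8 libraries and its lowest value in Day 0 replicate 4. Its normalized count was 2616, 2877, 3436 and 954 in Day 0 replicates 1 to 4 and 2894, 4353, 2194 and 1680 in Recurring replicates 1 to 4. Mean log2 levels were 11.12 ± 0.83 in Day 0 libraries and 11.35 ± 0.59 in Recurring ones (SD, n = 4 each). The difference was 0.23 (SE 0.49, 95% interval -0.80 to 1.25, limma adjusted p = 0.998), with -0.18 without Day 0 replicate 4 and -0.02 without Recurring replicate 2.

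**Figure D2:**
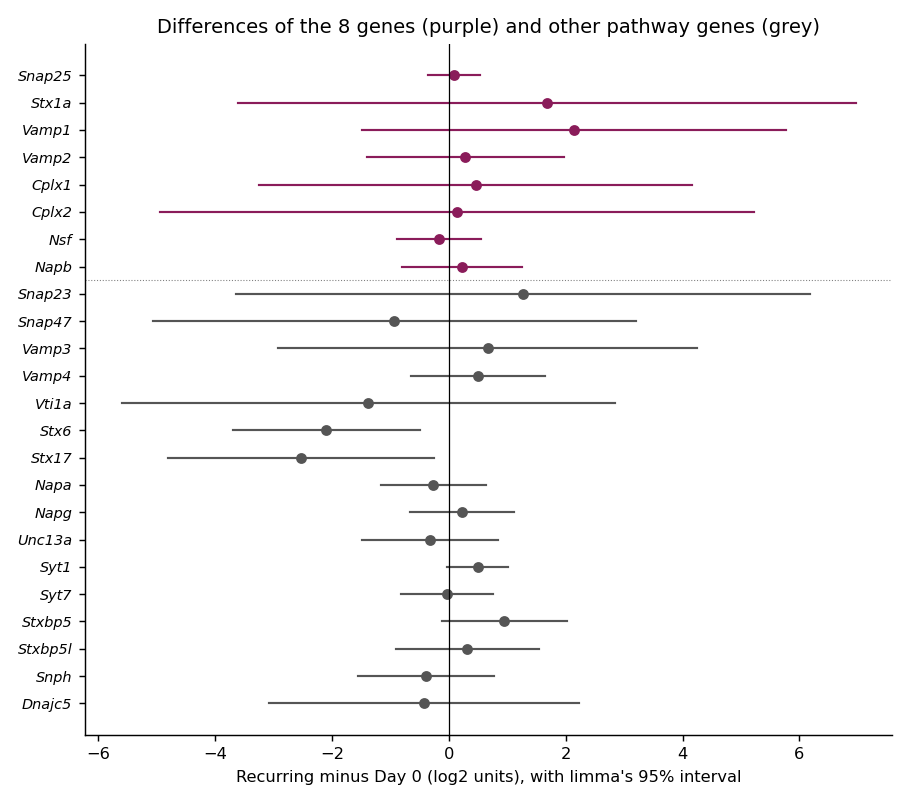
Difference between Recurring and Day 0 place cells in log2(normalized count + 1) (x axis) for each of the 8 genes (purple) and 16 other genes of SNARE fusion (grey), with 95% limma intervals (n = 4 libraries per group) and a line at 0. All 8 purple intervals hold 0, and among them only those of Snap25 (-0.36 to 0.53) and Nsf (-0.88 to 0.56) lie within 1 log2 unit of it.

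The genes differed widely in how closely these intervals bound a change. Intervals of Snap25 and Nsf lay within 1 log2 unit of 0, that is, inside a 2-fold change either way, which held for 1.98% of tested genes. For the other 6, a change of 2-fold or more in at least one direction was within the interval, and for Stx1a, Cplx1, Cplx2 and Vamp1 a change of over 16-fold was. The median SE of the 8 was 1.26, against 1.78 for all tested genes. The SD within groups was set against tested genes whose mean log2 level lay within 0.5 of the gene's own. The share of these with a smaller SD was 23.8% for Nsf, 27.3% of 11 genes for Snap25, 35.7% for Cplx2, 44.5% for Vamp1, 44.8% for Stx1a, 55.7% for Cplx1 and 61.0% for Napb. Vamp2 stood apart at 93.5%. Reads were present in all 8 libraries for 6 of the 8 genes, against 54.4% of tested genes.

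**Figure D3:**
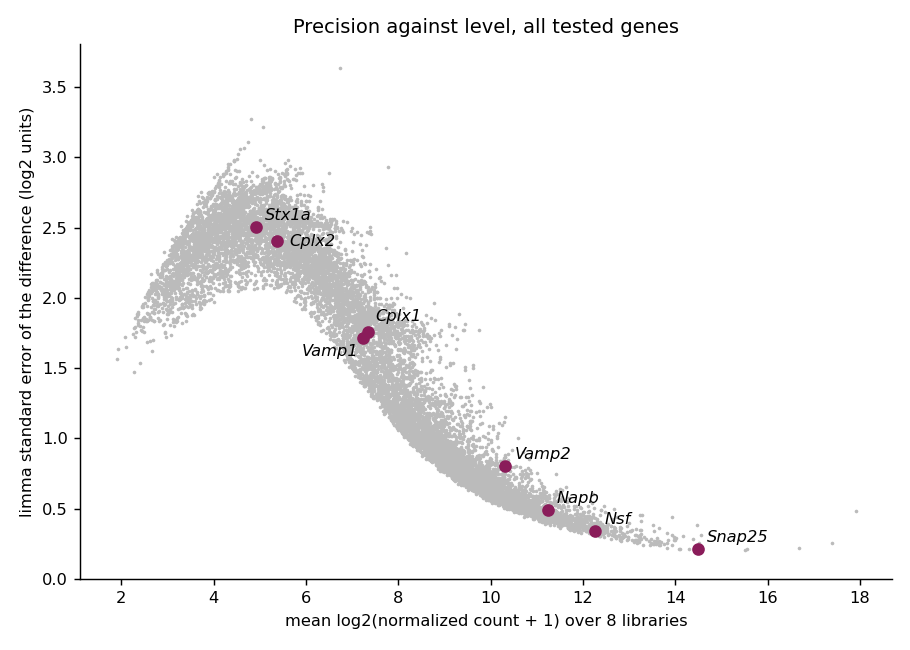
Mean log2(normalized count + 1) over the 8 libraries (x axis) against the limma standard error of the Recurring minus Day 0 difference (y axis), with tested genes in grey and the 8 genes named. The standard error falls from 2.50 for Stx1a to 0.21 for Snap25 as the level rises. Limma's variance trend draws each standard error towards that of genes of like level, so part of this fall is built in.

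As reads per kilobase of exon scaled to library depth (RPKM), the level over all 8 libraries was 369 ± 61.5 for Snap25, 66.1 ± 18.2 for Nsf, 48.2 ± 27.9 for Vamp2 and 40.2 ± 15.4 for Napb (SD, n = 8). It was 21.4 ± 22.3 for Cplx1, 4.64 ± 5.67 for Stx1a, 3.34 ± 2.92 for Vamp1 and 2.84 ± 3.44 for Cplx2 (SD, n = 8). Lengths were the merged exons of GENCODE vM21, an annotation of an earlier build than the authors', in which no exon of the 8 genes overlaps an exon of another gene. Snap25 was above Nsf in 8 of 8 libraries. Its neighbours below were less clearly ordered: Nsf exceeded Vamp2 in 5 of 8 libraries, Vamp2 exceeded Napb in 5, Napb exceeded Cplx1 in 6 and Cplx1 exceeded Stx1a in 6. Among the lowest, Stx1a exceeded Vamp1 in 3 of 8 libraries and Vamp1 exceeded Cplx2 in 5. Apart from Snap25 and Nsf, no neighbouring pair was thus ordered alike in every library. By group, Stx1a was at 2.25 ± 3.03 in Day 0 libraries and 7.03 ± 7.11 in Recurring ones, and Cplx2 at 3.94 ± 4.36 and 1.75 ± 2.32 (SD, n = 4 each). The 8 genes together made up 0.365% ± 0.067 of reads in Day 0 libraries and 0.362% ± 0.039 in Recurring ones (SD, n = 4 each), of which Snap25 made up 61.0% to 77.3% per library.

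The balance between close paralogs was compared for 3 pairs as the log2 ratio of reads in each library. Reads were not corrected for length here, so a share describes libraries against each other and not a gene against its paralog. Across the 3 pairs, exact 2-sided permutation tests over the 70 assignments of libraries (smallest possible p 0.0286) gave no difference between the groups. Vamp1 made up 0.125%, 3.87%, 79.7% and 4.77% of the Vamp1 and Vamp2 reads in Day 0 replicates 1 to 4. In Recurring replicates 1 to 4 it made up 16.5%, 4.67%, 36.2% and 31.4%. The library with most Vamp1 in its synaptobrevin reads was Day 0 replicate 3, the one low in Vamp2. The log2 ratio was -4.05 ± 4.60 in Day 0 libraries and -2.15 ± 1.59 in Recurring ones (SD, n = 4 each), a difference of 1.89 (exact permutation p = 0.514, adjusted over the 3 pairs 0.943), and 0.17 to 3.90 with a library left out.

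Cplx1 made up 80.6%, 65.3%, 45.7% and 100% of complexin-1 and complexin-2 reads in Day 0 replicates 1 to 4. The Recurring replicates 1 to 4 had 33.8%, 93.8%, 45.6% and 98.5%. Each group thus held a library with fewer Cplx1 than Cplx2 reads and one with nearly all Cplx1. In Day 0 these rest on few reads, 16 Cplx1 and 19 Cplx2 in replicate 3 and 23 and 0 in replicate 4. The log2 ratio differed by 0.32 (exact permutation p = 0.943, adjusted 0.943). It was -0.93 without Recurring replicate 4, -0.36 without Day 0 replicate 3 and -0.26 without Recurring replicate 2.

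Napa, the widely expressed alpha-SNAP, made up 41.9%, 49.1%, 48.7% and 84.1% of the reads it shares with Napb in Day 0 replicates 1 to 4. Its share was 40.6%, 30.3%, 57.4% and 69.0% in Recurring replicates 1 to 4. Day 0 replicate 4, the library low in Napb, had the highest Napa share. The log2 ratio differed by -0.49 (exact permutation p = 0.629, adjusted 0.943), and by 0.16 without Day 0 replicate 4.

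**Figure D4:**
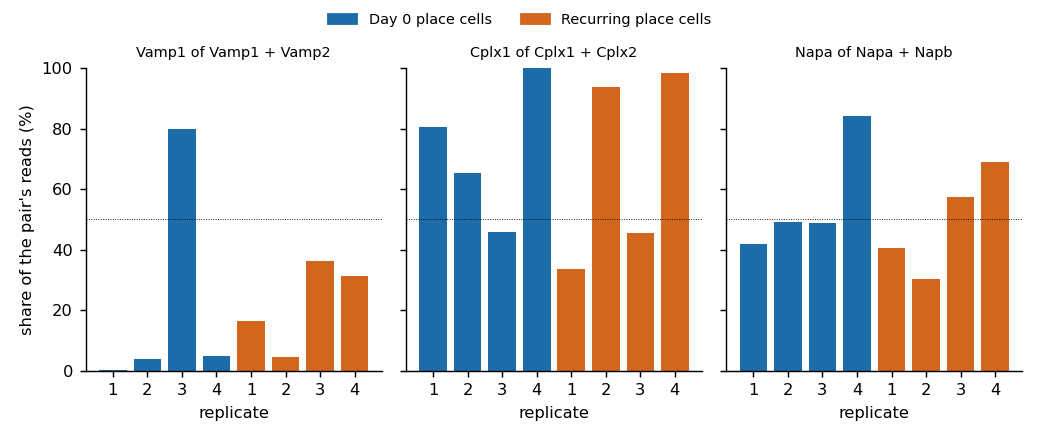
Share of reads (percent, y axis) taken by the first gene of each paralog pair, with 1 bar per library for Day 0 (blue) and Recurring (orange) place cells and a dotted line at equal reads. The Vamp1 share runs from 0.125% to 79.7% over the 8 libraries, the Cplx1 share from 33.8% to 100% and the Napa share from 30.3% to 84.1%. The groups overlap in each pair. Both ends of the Cplx1 range rest on few reads, 26 Cplx1 and 51 Cplx2 at the low end and 23 and 0 at the high end.

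The other genes of SNARE-mediated fusion were taken from 8 lists of 73 genes: paralogous and intracellular SNAREs, adaptors, SM proteins, priming factors, calcium sensors, inhibitors and chaperones. Of these, 59 were in the table and 56 were tested, with 26 means higher and 30 lower in Recurring cells and a median difference of -0.08. By limma, 0 passed the adjusted threshold, and 0 higher and 2 lower genes had an unadjusted p under 0.05, where 3.62% of all tested genes did. Both were SNAREs of intracellular membranes. Stx6, a syntaxin of the trans-Golgi network and endosomes, had normalized counts of 1790, 1081, 1635 and 1457 in Day 0 and of 637, 110, 232 and 846 in Recurring replicates 1 to 4. All Day 0 libraries lay above all Recurring ones, as also for Stx2, a plasma membrane syntaxin, with 205 to 879 and 0 to 90.0. These were 2 of the 56 tested genes, where the groups did not overlap for 2.41% of all tested genes. The difference for Stx6 was -2.09 (SE 0.75, limma unadjusted p = 0.013, adjusted p = 0.981). For Stx2 it was -3.88 (SE 1.91, limma unadjusted p = 0.058, adjusted p = 0.981). That for Stx17, the syntaxin of autophagosomes, was -2.53 (SE 1.08, limma unadjusted p = 0.032, adjusted p = 0.981), and its groups overlapped. The count of 2 became 1 without Day 0 replicate 3, and 5 without Day 0 replicate 1, Recurring replicate 1 or Recurring replicate 3.

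By role, 5 of 8 tested membrane and vesicle SNARE paralogs had a higher mean in Recurring cells, against 50.1% of all tested genes. So did 8 of 16 Golgi, endosome and ER SNAREs, 1 of 2 adaptors and 1 of 7 SM proteins. The same held for 2 of 4 priming factors, 5 of 11 calcium sensors, 2 of 4 inhibitors and 2 of 4 chaperones. None of these genes passed limma's adjusted threshold. Unc13a, the Munc13 priming factor that opens syntaxin, differed by -0.33 (SE 0.55). Syt1, the calcium sensor of fast release, differed by 0.49 (SE 0.25, limma unadjusted p = 0.062, adjusted p = 0.981). Its Day 0 libraries held normalized counts of 8054 to 12757 and its Recurring libraries 11222 to 16431. Syt7, a slower calcium sensor, differed by -0.03 (SE 0.37). Napg, gamma-SNAP, differed by 0.23 (SE 0.42). Napa differed by -0.26 (SE 0.42). The tomosyns Stxbp5 and Stxbp5l, which occupy syntaxin in place of synaptobrevin, differed by 0.95 (SE 0.51) and 0.32 (SE 0.58), and the syntaxin-binding syntaphilin Snph by -0.39 (SE 0.55). Among the SNAREs of broader use, Vamp4 differed by 0.50 (SE 0.54), Vamp3 by 0.66 (SE 1.70), Snap23 by 1.27 (SE 2.33), Snap47 by -0.93 (SE 1.96) and Vti1a by -1.38 (SE 2.00). The chaperone Dnajc5 (cysteine string protein) differed by -0.43 (SE 1.26). Prrt2 was too low to test, at 0 to 17 reads per library, and Cplx3 was not among the genes of the table.

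The 8 genes did not move as one across the libraries. Over the 28 pairs, Pearson's r of the log2 levels across 8 libraries ran from -0.69 to 0.65, with 17 positive and 11 negative values and a median of 0.11. Snap25 and Nsf, the steadiest pair, had r = -0.69. Cplx2 correlated at 0.65 with Nsf. All values share the libraries' depth and size factors and describe these libraries only. Among 5608 genes searched, the gene whose levels across the 8 libraries were most like those of Snap25 was Nefm, which encodes the medium neurofilament (r = 0.97). The nearest for Vamp2 was Rad23b (r = 0.98), for Vamp1 Zcchc14 (r = 0.97), for Cplx1 Lmbr1 (r = 0.95), for Napb Zfp644 (r = 0.98) and for Nsf Senp2 (r = 0.97). Each of these values is the highest of 5608 over only 8 libraries, so it is high by selection, and none was tested. Stx1a and Cplx2 were not searched, each having a library with 0 reads.

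Markers of inhibitory interneurons varied between the libraries, and are set beside Cplx1 and Vamp1 because these genes are known from inhibitory neurons. Of 12 interneuron markers, 10 were in the table, and their mean log2 level was 6.49, 3.48, 2.89 and 2.40 in Day 0 and 3.14, 8.67, 5.45 and 4.50 in Recurring replicates 1 to 4. Their summed normalized count was 587 to 2758 in Day 0 and 1502 to 12244 in Recurring libraries. Gad1, which makes the transmitter GABA, had 1304, 239, 501 and 0 reads in Day 0 and 6, 5740, 768 and 0 in Recurring replicates 1 to 4. The vesicular GABA transporter Slc32a1 was at 0 in 5 of the 8 libraries. Cplx1 was lowest in Day 0 replicates 3 and 4 and Recurring replicate 1, the libraries lowest in interneuron marker level. It was high in Day 0 replicate 1 and Recurring replicate 2, which were highest in marker level. It was also high in Day 0 replicate 2, where the marker level was 3.48, and in Recurring replicate 4, where it was 4.50. Vamp1 was lowest in Day 0 replicate 1 and next lowest in Recurring replicate 2, at the 2 highest marker levels. The 9 dentate granule and CA3 markers in the table were also lowest in Day 0 replicates 3 and 4 and Recurring replicate 1. Their mean log2 level was 5.61, 6.88, 4.03 and 3.13 in Day 0 and 4.25, 7.71, 6.52 and 5.85 in Recurring replicates 1 to 4. Day 0 replicates 3 and 4 and Recurring replicate 1 also had the fewest detected genes of all libraries (11628, 10718 and 10904). In them 6, 6 and 5 of the 10 interneuron markers had 0 reads, against 1 to 4 in the other libraries. The part of interneurons, of dentate granule and CA3 cells or of gene detection in the Cplx1 and Vamp1 values was not tested. The interneuron marker level differed by 1.62 between the groups (exact permutation p = 0.343, adjusted over 8 marker lists 0.457). It differed by 0.55 without Recurring replicate 2 and by 2.51 without Day 0 replicate 1. For 12 astrocyte markers in the table the level differed by 1.86 (exact permutation p = 0.2, adjusted 0.457), and by 1.16 without Recurring replicate 1. The level of 5 microglial markers in the table was 3.10 ± 1.27 in Day 0 libraries and 6.41 ± 2.74 in Recurring ones (SD, n = 4 each, exact permutation p = 0.0571, adjusted 0.457). The microglial difference of 3.31 was 2.13 without Recurring replicate 4.

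**Figure D5:**
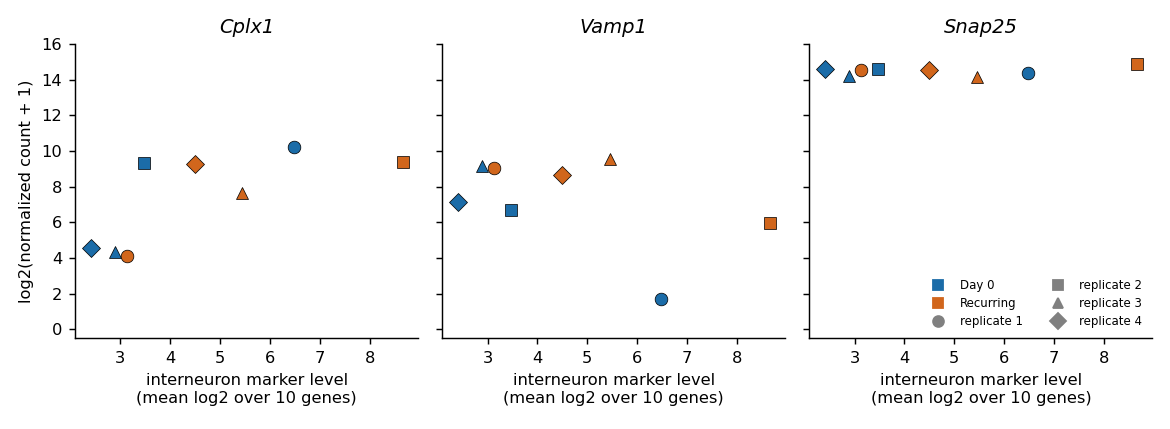
Mean log2 level of the 10 interneuron markers in each library (x axis) against log2(normalized count + 1) of Cplx1, Vamp1 and Snap25 (y axis), with 1 point per library. Cplx1 is lowest in 3 libraries with low marker levels (2.89, 2.40 and 3.14), and Snap25 is level across the range. The same 3 libraries are lowest in dentate granule and CA3 markers and in the number of detected genes, which are not drawn.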

How the data were processed

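Nuclear RNA was prepared for sequencing with the SMART-Seq mRNA LP kit, as the labels' protocols state. Per the submitters' processing notes, STAR, HTSeq and GRCm39 were used, with versions not given. The deposited signal per gene and library is whole reads multiplied by a constant of each gene (median 1.11, 0.861 to 1.28 for the 8 genes), which the authors' file does not explain and which corrects no depth. For all 15519 genes the constant matched 1.20 divided by a trimmed-mean (TMM) scaling factor, computed for the gene against the gene Ptdss1. Dividing the constant out gave whole reads, within 0.1 read, for 95910 of 95910 values above 0 (100%). Because the deposited signal was not corrected for depth, as the plan had assumed, each library's reads were scaled by a median-of-ratios size factor (0.837 to 1.61). RPKM values use merged GENCODE vM21 exons. Genes with a normalized count of at least 10 in 4 libraries were tested on log2(count + 1) with limma 3.58.1 (R 4.3.3, variance trend). The recovery of reads and the limma fit were each tested on simulated data. Marker levels are means of log2 levels over the list's genes in the table. Replicates are numbered in deposit order. The members, the lists and the rule for named genes (all 8 members, a fixed set of pathway genes, pathway genes at an unadjusted p under 0.05, marker genes, and the 2 genes most like each member, of which the nearest is given) were chosen with earlier results of these data known. Stx2 was named after its values were seen. Promoters are RefSeq's. Alternatives covered pseudocounts, filters, scaling, voom, library weights and left-out libraries. Some planned results on single pathway genes and 1 paralog ratio are not reported here.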

Additional observations from a re-analysis of the deposited data

Results flagged for a closer look

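In Day 0 replicate 3, Vamp2 had a log2 level of 7.17, while the other 3 Day 0 libraries lay between 10.80 and 11.44. The gap took up 0.849 of the group's range, above the 95% critical value of Dixon's test for 4 samples. In Day 0 replicate 4, the log2 ratio of Napa to Napb reads was 2.40, while the other 3 Day 0 libraries lay between -0.47 and -0.05, a gap of 0.854 of the range. Of 38 groups of 4 libraries examined in this way, 2 had such a library, and chance gives about 1 in 20.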

How the results depend on the processing

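Across 10 alternatives and 8 fits with a library left out, 0 of the 8 genes passed either threshold. Of 77 alternative values for the 8 differences, 70 kept their direction and side and 7 reversed. With library weights the difference was -0.033 for Snap25, -0.13 for Vamp2, -0.34 for Cplx1, -0.93 for Cplx2 and -0.090 for Napb. It was -0.32 for Cplx1 with voom and -0.43 for Cplx2 with a pseudocount of 10. The causes were not tested. With a library left out, 52 of 64 values kept their direction. They ranged from -0.025 to 0.21 for Snap25, 0.66 to 3.14 for Vamp1, -0.72 to 0.70 for Vamp2, 0.33 to 3.37 for Stx1a, -0.47 to 1.63 for Cplx1, -1.63 to 1.18 for Cplx2, -0.18 to 0.44 for Napb and -0.36 to -0.02 for Nsf. The lowest adjusted p among them was 0.926, for Stx1a. The paralog ratios then ranged from 0.17 to 3.90 (Vamp1 to Vamp2), -0.93 to 1.36 (Cplx1 to Cplx2) and -0.89 to 0.16 (Napa to Napb). Of the other pathway genes, 2 had an unadjusted p under 0.05, 4 with no filter, 4 with library weights and 1 to 5 with a library left out. The CA1 marker difference was -0.025 with library totals alone and -0.26 to 0.24 with a library left out, when that of the oligodendrocyte markers ranged from -1.53 to 0.092. Requiring 10 in all 8 libraries left Vamp1, Stx1a and Cplx2 untested. The median of all genes was 0.09 with the deposited values, -0.15 without Day 0 replicate 4 and 0.15 without Recurring replicate 1. The planned edgeR and DESeq2 fits were not run, and of the methods that model counts voom was used on the recovered reads. No paired analysis was possible because the replicate numbers follow deposit order and tie no libraries together. Stx1a, Cplx2 and Vamp1 had libraries with fewer than 10 reads, where counting error is large. These were Day 0 replicates 1 and 4, with 11789782 and 9766640 reads, and Recurring replicates 1 and 4, with 14887866 and 9332710. The lowest depth of all libraries was 8374986 reads. Day 0 replicate 4 and Recurring replicate 1 had the fewest detected genes of all libraries (10718 and 10904). The part of depth and of gene detection in these low counts was not tested.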
